A study of Mus musculus with 96 samples.

Results

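The comparison described here is that of cardiomyocytes (CM) isolated from the mouse heart 3 days after myocardial infarction (Day 3) with cardiomyocytes isolated 1 day after it (Day 1). Its members were chosen by their labels alone. They are the 4 libraries labelled CM at Day 3 and the 4 labelled CM at Day 1, which makes 8 of the 96 total RNA libraries of a study of 4 cardiac cell types at 6 times. Both groups came from male C57Bl/6J mice, 12 to 14 weeks old by the methods, in which the left anterior descending coronary artery was tied for good, so that the muscle it feeds stayed without blood. No other treatment or allele was given, and the groups differ by the day of harvest. Hearts were digested with collagenase and the heavy CM were enriched by repeated slow centrifugation, which leaves some other cells in the isolate. Each library was a pool of material from about 3 mice. Its 4 pools per group are described by the study as biological in one place and technical in another, so a p-value stands only for the scatter among pools. Infarcted and remote muscle were not separated, and a CM isolate holds the cells that survived both the ligation and the digestion.

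Cardiomyocytes are the contractile cells of the heart. They live almost wholly on mitochondrial oxidation of fatty acids, and in the adult mouse they seldom divide. In the first day after ligation the cells that survive are exposed to low oxygen, stretch and signals of tissue injury, and neutrophils enter the muscle. Over the next days monocytes and macrophages clear dead cells, fibroblasts divide and lay down collagen, and a scar begins to form. The step between Day 1 and Day 3 therefore covers the change between the acute phase and the start of repair.

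The CM libraries held 35073563 to 41387755 estimated reads at Day 3 (median 37075513) and 29979141 to 55758471 at Day 1 (median 32690360), replicate 3 of Day 1 being the deepest. Mitochondrial rRNA took 53.8% to 58.1% of reads at Day 3 and 58.1% to 62.6% at Day 1, and nuclear protein-coding genes took 19.5% to 21.8% at Day 3 and 16.6% to 19.8% at Day 1. The 4 CM markers of the study (Tnnt2, Tnni3, Nppb and Actc1) summed to 3362 to 4259 CPM (reads of a gene scaled by the size of the library and between libraries) at Day 3 and 2405 to 3541 CPM at Day 1, while isolates of endothelial cells (EC) averaged 364 CPM at Day 3 and 456 CPM at Day 1. The summed CPM of a wider list of 16 abundant CM transcripts went the other way. It was 17435 to 21889 CPM at Day 3 (mean 19366) and 19185 to 24940 CPM at Day 1 (mean 21878), ranges that overlapped. The direction depended on the measure. The median log2 fold change of the list was 0.06, with 1 member called higher and 2 lower. Its summed TPM was 4248 to 6478 at Day 3 and 3324 to 4200 at Day 1. Markers of other cells were also present. The 4 markers of hematopoietic cells (HC) summed to 5.14 to 7.21 CPM at Day 3 and 1.29 to 3.22 CPM at Day 1, and those of fibroblasts (FB) to 6.14 to 8.62 CPM at Day 3 and 3.12 to 4.25 CPM at Day 1, so that neither pair of ranges overlapped. The 4 EC markers summed to 66.4 to 87.2 CPM at Day 3 and 61.0 to 73.6 CPM at Day 1. Those of 10 mural cell markers were 147 to 175 CPM at Day 3 and 143 to 173 CPM at Day 1, and both these pairs of ranges overlapped. None of the 12 T and NK cell markers passed the filter on low counts. Libraries of the same replicate number deviated together in many genes, and those numbered 2 and 4 were above those numbered 1 and 3 on both days for Actb, Apoe and Tnni3. A gene can be lower in an isolate because fewer cells of a type were in it or because those cells held less of its RNA, and these cannot be told apart here.

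Of 14540 genes tested, 2166 (14.9%) were called, which means an adjusted p under 0.05 in edgeR's quasi-likelihood test with Benjamini-Hochberg adjustment. Of these, 1310 (9.01% of genes tested) were higher and 856 (5.89%) lower at Day 3, and the median log2 fold change over all genes tested was −0.03. At an unadjusted p under 0.05 there were 2079 higher and 2024 lower genes. The calls of 847 higher genes (5.83%) and 316 lower genes (2.17%) were kept in each of 8 fits that left out 1 of these libraries. The number of lower genes depends on the scaling, and on unrescaled TPM the direction of many of them does too. With library totals in place of scaling factors the median of all genes moved by 0.23 on the log2 scale and the split was 1687 higher against 68 lower, and on log2(TPM + 1), where it moved by 0.10, it was 2107 against 32. A split of 60.5% higher in the test with scaling factors thus stands beside 96.1% with totals and 98.5% with TPM. Of the 856 lower genes, 856 stayed below 0 with totals, 850 on log2(TPM + 1) after TPM was rescaled to nuclear protein-coding genes, an alternative chosen after the data were seen, and 524 on log2(TPM + 1) without that step.

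**Figure D1:**
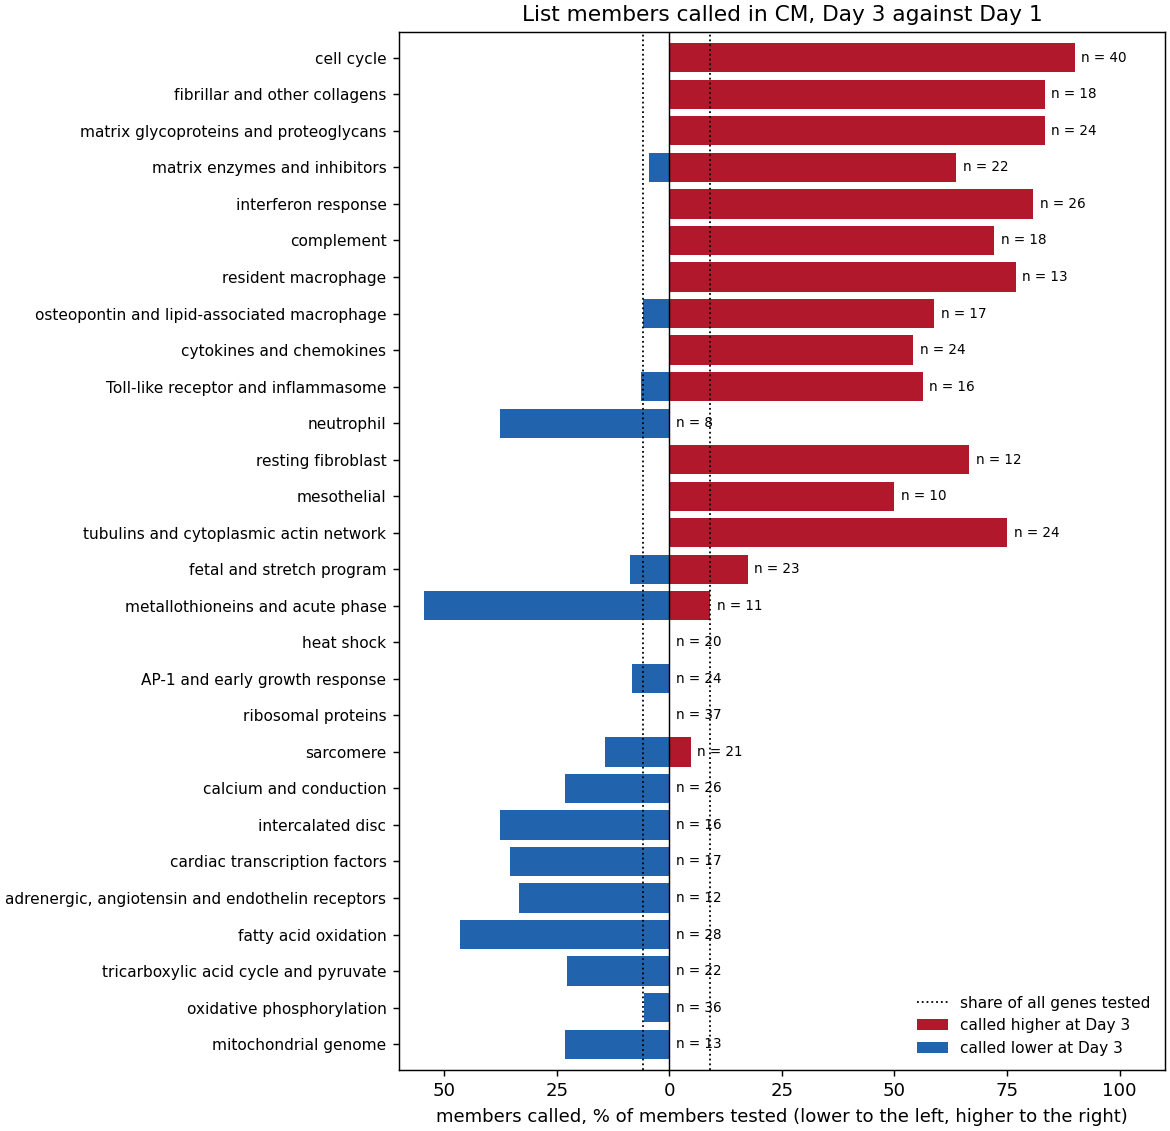
Share of the tested members of 28 gene lists called in CM at Day 3 against Day 1 by edgeR (x axis, percent of members tested, higher to the right in red, lower to the left in blue), with the number tested beside each bar and the shares of all genes tested, 9.01% higher and 5.89% lower, as dotted lines. The cell cycle, collagen, matrix and interferon lists reach far to the right, and fatty acid oxidation reaches farthest to the left of the metabolic lists. The blue bars depend on the scaling: 856 genes were lower with scaling factors and 32 on log2(TPM + 1).

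The extracellular matrix genes formed one of the most uniform groups of higher genes. Of 18 collagen genes tested 15 were higher and none lower, with a median log2 fold change of 2.29, of 24 matrix glycoproteins and proteoglycans 20 were higher and none lower (median 1.54), and of 22 matrix enzymes and their inhibitors 14 were higher and 1 lower (Adamts1, a protease that cuts proteoglycans, whose call was lost without each of 6 of the 8 libraries, the adjusted p reaching 0.15 without replicate 4 of Day 1). Col1a1 (ENSMUSG00000001506, GRCm38 chromosome 11, 94936224 to 94953042, plus strand) encodes the main chain of collagen I, the fibre of scar tissue. It had 58.2, 96.9, 89.0 and 75.3 CPM at Day 3, against 2.96, 4.28, 4.64 and 4.25 CPM at Day 1. All Day 3 libraries were far above the highest Day 1 library, and the fitted fold was 19.7 (log2 fold change 4.30 ± 0.35, SE, adjusted p = 6.3e-08 by edgeR). Col1a2, the partner chain, rose 12.6-fold and Col3a1, the chain of collagen III laid down early in a scar, rose 6.15-fold. Cthrc1, a secreted protein of activated fibroblasts in healing tissue, had 1.79, 3.00, 2.43 and 2.71 CPM at Day 3 and 0.162, 0.0615, 0.0422 and 0.0665 CPM at Day 1. Its groups did not overlap, and its log2 fold change of 4.91 ± 0.54 was the largest of the glycoprotein list. Tenascin C (Tnc, 3.73 ± 0.37), periostin (Postn, 3.02 ± 0.40), the collagen cross-linking enzyme Lox (3.11 ± 0.31) and the collagenase activator Mmp14 (2.10) also rose. Fibronectin (Fn1) averaged 45.0 ± 9.9 CPM at Day 3 and 11.4 ± 5.2 CPM at Day 1 (SD, n = 4 each).

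Members of the matrix lists did not all move by the same amount. Decorin (Dcn), a proteoglycan that resting fibroblasts make, had 44.5, 43.6, 55.1 and 33.9 CPM at Day 3 and 13.7, 13.8, 14.7 and 14.5 CPM at Day 1, a 3.13-fold rise. Col4a1, a chain of the basement membrane that surrounds each CM and capillary, had 45.6, 64.0, 36.8 and 56.4 CPM at Day 3 and 26.0, 33.8, 33.7 and 40.2 CPM at Day 1. These groups overlapped, and the difference was not called (log2 fold change 0.60 ± 0.22, adjusted p = 0.066 by edgeR), though it was with the replicate number as a block (0.58, adjusted p = 0.0044). The collagen list summed to 348 to 530 CPM in the Day 3 libraries and 77.9 to 116 CPM in the Day 1 libraries. In the same libraries the 12 markers of resting fibroblasts summed to 60.4 to 89.1 CPM at Day 3 and 29.99 to 36.1 CPM at Day 1, with 8 of 12 higher (and 1 lower with the replicate number as a block), and Pdgfra, a receptor of fibroblasts, had 3.08, 3.98, 3.15 and 3.40 CPM at Day 3 against 1.27, 1.38, 1.18 and 1.33 CPM at Day 1. EC libraries, which came from a separate isolate and library batch, averaged 452 CPM of Col1a1 at Day 3 and 43.4 CPM at Day 1. The part of fibroblasts in the CM values was not tested.

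Genes of cell division rose together. Of 40 cell cycle genes tested 36 were higher and none lower, with a median log2 fold change of 2.53. Cyclin A2 (Ccna2, ENSMUSG00000027715, chromosome 3, 36564865 to 36572150, minus strand), which drives DNA replication and entry into mitosis, had 2.96, 3.57, 2.66 and 2.71 CPM at Day 3 and 0.227, 0.154, 0.105 and 0.133 CPM at Day 1. The lowest Day 3 library was far above the highest Day 1 library, and the fold was 19.3 (log2 fold change 4.27 ± 0.35, adjusted p = 4.0e-08 by edgeR). Cdk1, the kinase that starts mitosis, rose 16.4-fold and Prc1, which bundles the microtubules of the dividing spindle, rose 15.3-fold. Top2a, which untangles replicated chromosomes, had 7.59, 8.66, 7.03 and 6.17 CPM at Day 3 and 0.747, 0.861, 0.485 and 0.698 CPM at Day 1. Mki67, the common marker of cycling cells, had 7.28, 6.75, 6.34 and 2.42 CPM at Day 3 and 0.390, 0.769, 0.527 and 0.332 CPM at Day 1, so that replicate 4 of Day 3 was well under the other Day 3 libraries but still above all Day 1 libraries. The helicase subunit Mcm3 rose 3.18-fold, while Pcna, the clamp of the replication fork, had 14.9, 13.3, 12 and 13.7 CPM at Day 3 and 12.3, 10.1, 12.4 and 9.27 CPM at Day 1, with overlapping groups and no call (0.29 ± 0.12, adjusted p = 0.12 by edgeR).

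The cyclins of the first growth phase moved less. Ccnd1 rose 1.89-fold (12 ± 2.2 CPM at Day 3 and 6.36 ± 1.0 CPM at Day 1) and Ccnd2 rose 1.32-fold. None of the inhibitors tested in that list was called, among them Cdkn1a, which stops the cycle after DNA damage (log2 fold change −0.20). Of 12 replication dependent histone genes 3 were higher, and the linker histone Hist1h1c was lower (0.71 on the log2 scale). The cell cycle list summed to 85.7 to 108 CPM at Day 3 and 30.4 to 39.5 CPM at Day 1 in CM, and it averaged 863 CPM at Day 3 and 156 CPM at Day 1 in EC libraries. The libraries of HC, scaled separately and deposited by gene at Day 3 but by transcript at Day 1, averaged 1738 CPM at Day 3 and 649 CPM at Day 1. In which cells of the CM isolate these transcripts lay was not tested.

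Promoters of 2 of these genes are shown because the list moved together and because the windows hold letters that many mitotic genes share. The windows run over 250 bases before to 50 after the start of transcription, from RefSeq on GRCm38.p6. The capitals mark TTTGAA, called the cell cycle homology region, and CCAAT, the box that often lies upstream of it, searched on both strands, so that the reverse of each is marked too. The Cdk1 window is chr10:69352863-69353162 on the minus strand and the Prc1 window chr7:80294201-80294500 on the plus strand.
Cdk1: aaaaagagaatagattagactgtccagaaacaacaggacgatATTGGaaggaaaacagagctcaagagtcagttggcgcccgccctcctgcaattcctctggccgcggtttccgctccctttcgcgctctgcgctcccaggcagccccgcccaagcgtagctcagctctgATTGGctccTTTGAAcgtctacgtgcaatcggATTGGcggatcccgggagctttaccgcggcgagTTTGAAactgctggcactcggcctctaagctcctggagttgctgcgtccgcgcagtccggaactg
Prc1: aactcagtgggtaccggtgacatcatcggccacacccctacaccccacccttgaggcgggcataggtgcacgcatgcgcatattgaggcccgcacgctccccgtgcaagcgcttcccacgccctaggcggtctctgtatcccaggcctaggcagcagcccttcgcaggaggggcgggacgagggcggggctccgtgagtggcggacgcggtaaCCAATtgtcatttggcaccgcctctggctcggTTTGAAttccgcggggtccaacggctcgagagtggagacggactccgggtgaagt
The Cdk1 window held 2 matches to TTTGAA and 3 to CCAAT, and the Prc1 window 1 of each. Of 20363 promoter windows of this length 16.7% held TTTGAA and 38.3% CCAAT, against 17 and 26 (76.5%) of the 34 cell cycle members with a window. A match is a run of letters and says nothing of binding in these cells.

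Genes that macrophages use were higher at Day 3. Of 13 markers of resident macrophages tested 10 were higher and none lower (median 1.96), of 18 complement genes 13 were higher and none lower (median 1.74), and of 17 genes of the osteopontin and lipid-associated macrophage 10 were higher and 1 lower. The lower one was Plin2, a coat protein of lipid droplets, whose call was lost without replicate 3 or 4 of Day 1 or replicate 1, 2 or 3 of Day 3 (2 genes of that list were lower with the replicate number as a block). C1qc (ENSMUSG00000036896, chromosome 4, 136889804 to 136893065, minus strand) encodes a chain of C1q, the recognition part of the classical complement pathway, which macrophages make. It had 3.42, 5.96, 4.39 and 4.84 CPM at Day 3, against 0.552, 0.492, 0.337 and 0.798 CPM at Day 1. The groups were far apart, with a log2 fold change of 3.12 ± 0.33 (adjusted p = 6.8e-07 by edgeR), and the other chains C1qa (3.03) and C1qb (3.08) moved by similar amounts. Gpnmb (ENSMUSG00000029816, chromosome 6, 49036546 to 49070929, plus strand), a membrane glycoprotein of lipid-laden macrophages, had 1.79, 3.86, 1.97 and 4.12 CPM at Day 3 and 0.0974, 0.0615, 0.127 and 0.0997 CPM at Day 1. Its fold of 28.8 was among the largest described here, and the Day 3 libraries numbered 2 and 4 held more than those numbered 1 and 3. The lipid receptor Trem2 rose 9.05-fold and Cd68, a lysosomal protein of macrophages, 6.57-fold.

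Secreted proteins that macrophages and other cells make were also higher. Osteopontin (Spp1) had 35.1, 44.8, 35.8 and 32.2 CPM at Day 3 and 7.11, 2.74, 3.29 and 8.84 CPM at Day 1, and lysozyme (Lyz2) had 31.1, 51.7, 34.5 and 42.4 CPM at Day 3 and 4.35, 4.68, 3.12 and 7.55 CPM at Day 1. Neither gene's groups overlapped, and the folds were 6.78 and 8.16. Apolipoprotein E (Apoe), which carries lipid away from macrophages, rose 5.73-fold with a wide spread of 8.37, 30.4, 14.4 and 29.5 CPM at Day 3 and 1.69, 3.97, 2.34 and 6.51 CPM at Day 1. Complement C3, the central component of the cascade, averaged 43.5 ± 6.6 CPM at Day 3 and 12 ± 4.1 CPM at Day 1. The 4 tested genes of antigen presentation on class II molecules were all higher (H2-Aa, H2-Ab1, H2-Eb1 and Cd74, log2 fold changes 1.64 to 2.37). HC isolates of the study, scaled separately and deposited in different forms on the 2 days, held 468 to 953 CPM of C1qc at Day 3 and 298 to 528 CPM at Day 1, and 291 to 391 CPM of Gpnmb at Day 3 and 21.9 to 150 CPM at Day 1. EC isolates averaged 0.137 CPM of C1qc at Day 3 and 0.159 CPM at Day 1. The pan-leukocyte gene Ptprc (CD45) had 2.26, 2.47, 2.37 and 1.84 CPM in CM at Day 3 and 1.01, 0.892, 0.464 and 1.20 CPM at Day 1, and the part of leukocytes in the values above was not tested.

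Chemokines and innate receptors followed the same direction. Of 24 cytokine and chemokine genes 13 were higher and none lower, and of 16 genes of Toll-like receptors and the inflammasome 9 were higher and 1 lower. Ccl2, which draws monocytes into tissue, had 5.55, 5.03, 6.52 and 5.21 CPM at Day 3 and 1.62, 0.954, 1.31 and 1.66 CPM at Day 1, a 4.03-fold rise with no overlap. Cxcl5 rose 4.32-fold and Cxcl16 4.69-fold. Ccl8, another monocyte attractant, had 1.19, 1.55, 1.13 and 1.35 CPM at Day 3 and, from no more than 3 reads in any library, 0.0649, 0.0308, 0.0422 and 0.0665 CPM at Day 1, so no fold is given. Il1b and Il6, cytokines of the acute phase, were not called (log2 fold changes −0.73 and 1.00), and Tlr4, the receptor of bacterial lipid and of damaged matrix, was the lower member (0.72 on the log2 scale), a call lost without replicate 2 of Day 1 or replicate 3 or 4 of Day 3, with adjusted p between 0.077 and 0.086.

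Of 8 neutrophil markers tested 3 were lower, namely Lcn2, S100a8 and S100a9, and 5 were not called, while the other 8 of the list were below the filter. None was higher in the edgeR fit of the 24 CM libraries. The chemokine receptor Cxcr2 was called higher by DESeq2 and in an edgeR fit of the 8 libraries alone. Lcn2 (lipocalin 2, ENSMUSG00000026822, chromosome 2, 32384633 to 32388252, minus strand), which binds bacterial iron carriers and is also an acute phase gene of CM, had 3.98, 4.34, 5.47 and 8.76 CPM at Day 3, against 17.9, 24.4, 25.8 and 28.3 CPM at Day 1. All Day 3 libraries were below all Day 1 libraries, by 4.29-fold (log2 fold change −2.10 ± 0.33, adjusted p = 0.00014 by edgeR), and it was lower under every scaling tried. The granule proteins S100a8 (3.84-fold lower) and S100a9 (4.18-fold lower) were at low levels, with 0.291, 0.315, 0.390 and 0.231 CPM of S100a8 at Day 3 and 1.59, 1.23, 0.823 and 1.16 CPM at Day 1. The neutrophil list summed to 34.4 to 58.9 CPM at Day 3 and 48.9 to 66.7 CPM at Day 1 in CM, ranges that overlapped. Ngp, another granule gene of the list, had no read in any of the 8 libraries. HC isolates held 2.81 to 8.64 CPM of Lcn2 at Day 3 and 31.9 to 78.5 CPM at Day 1, and the part of neutrophils in the CM value was not tested.

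Interferon-stimulated genes were higher at Day 3. These genes are switched on by interferons of type I and II through STAT factors and serve in defence against viruses and in the response to DNA of dead cells. Of 26 tested 21 were higher and none lower (median 1.5), and the list summed to 63.0 to 67.8 CPM at Day 3 and 29.1 to 32.3 CPM at Day 1. The guanylate-binding protein Gbp3 (ENSMUSG00000028268, chromosome 3, 142560026 to 142573209, plus strand) had 2.94, 2.06, 2.07 and 1.70 CPM at Day 3 and 0.455, 0.584, 0.696 and 0.399 CPM at Day 1. The groups were apart, and the fold was 4.02 (log2 fold change 2.01 ± 0.28, adjusted p = 2.1e-05 by edgeR). Rtp4, a chaperone of receptors induced by interferon, had 1.92, 1.38, 1.79 and 1.84 CPM at Day 3 and 0.422, 0.431, 0.401 and 0.299 CPM at Day 1, a 4.42-fold rise. Ifi44 rose 3.29-fold, and the transcription factor Irf1 rose 1.74-fold. The Day 1 means of Gbp3, Rtp4 and Ifi44 were 0.533, 0.388 and 0.641 CPM, against 1.02, 0.666 and 1.04 CPM in CM of unoperated hearts (Day 0), so that for these genes the Day 1 level was the lower of the 2. HC isolates held 33.9 to 68.0 CPM of Rtp4 at Day 3 and 20.3 to 42.6 CPM at Day 1, and the part of other cells was not tested.

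The Gbp3 promoter is shown because most members of the list hold the letters of the interferon-stimulated response element. The window is chr3:142559794-142560093 on the plus strand of GRCm38.p6, from RefSeq, 250 bases before to 50 after the start, and the capitals mark the reverse complement of the element, searched as GAAA followed after 2 free bases by a second GAAA, which occurs there as 2 overlapping matches.
Gbp3: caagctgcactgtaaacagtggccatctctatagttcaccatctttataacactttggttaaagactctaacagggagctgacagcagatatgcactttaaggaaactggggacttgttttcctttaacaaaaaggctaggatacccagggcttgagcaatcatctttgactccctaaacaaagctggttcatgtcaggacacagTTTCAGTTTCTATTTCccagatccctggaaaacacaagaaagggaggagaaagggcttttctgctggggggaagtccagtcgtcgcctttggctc
The element, searched on both strands, was found in 3.36% of all 20363 windows and in 65.0% of the 20 interferon members with a window, that is in 13 of them. The window of Ifi44, examined along with that of Gbp3 and not shown, held no match by this search. A match does not show a site in use.

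Most of the called genes of the acute phase were lower at Day 3. Of 11 metallothionein and acute phase genes tested 6 were lower and 1 higher (Saa3), with a median of −0.40 with scaling factors and near 0 on log2(TPM + 1). Metallothioneins are small proteins that bind zinc and copper and are induced by glucocorticoids, metals and oxidants. Mt2 (ENSMUSG00000031762, chromosome 8, plus strand) had 23.9, 24.1, 21.1 and 31.6 CPM at Day 3 and 68.2, 42.7, 153 and 59.1 CPM at Day 1, and its neighbour Mt1 (ENSMUSG00000031765) had 76.3, 65.7, 83.2 and 95.7 CPM at Day 3 and 187, 103, 346 and 127 CPM at Day 1. Replicate 3 was the highest Day 1 library for both, and no Day 3 library reached the lowest Day 1 library. The folds were 3.21 lower for Mt2 (log2 fold change −1.68 ± 0.40, adjusted p = 0.0071 by edgeR) and 2.38 lower for Mt1. Without that library the log2 fold changes were −1.15 for Mt2 and −0.78 for Mt1, both still called. Both had been lower still in unoperated hearts, at 3.53 CPM for Mt2 and 39.0 CPM for Mt1. Serpina3n, an inhibitor of neutrophil proteases, was lower by 0.96 and the copper carrier ceruloplasmin (Cp) by 0.73 on the log2 scale. The serum amyloid gene Saa3, which macrophages and stromal cells make, had 11.5, 7.95, 11.6 and 11.5 CPM at Day 3 and 1.49, 2.74, 0.738 and 1.20 CPM at Day 1.

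The Mt1 and Mt2 promoters are shown because these neighbours moved together and because metal response elements are the known control letters of this family. The windows, from RefSeq on the plus strand of GRCm38.p6, are chr8:94178839-94179138 for Mt1 and chr8:94172368-94172667 for Mt2, and the capitals mark TGCNCNC or its reverse.
Mt1: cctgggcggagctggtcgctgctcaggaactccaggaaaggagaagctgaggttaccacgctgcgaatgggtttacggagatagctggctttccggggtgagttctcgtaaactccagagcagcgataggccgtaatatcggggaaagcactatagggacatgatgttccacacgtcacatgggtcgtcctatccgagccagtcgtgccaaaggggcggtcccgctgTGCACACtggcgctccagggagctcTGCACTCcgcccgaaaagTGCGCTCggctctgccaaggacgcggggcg
Mt2: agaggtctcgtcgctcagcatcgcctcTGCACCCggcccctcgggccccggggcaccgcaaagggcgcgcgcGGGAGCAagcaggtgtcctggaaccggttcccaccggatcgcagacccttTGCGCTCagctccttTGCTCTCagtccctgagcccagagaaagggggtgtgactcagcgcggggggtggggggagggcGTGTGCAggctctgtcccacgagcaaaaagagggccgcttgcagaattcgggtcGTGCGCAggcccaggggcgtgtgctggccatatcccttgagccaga
Mt1 held 3 matches and Mt2 held 6. These letters are common, since 52.5% of all 20363 windows and 4 of the 8 acute phase members with a window hold at least 1 match, so their presence sets the list in no way apart.

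Genes of the interleukin-6 and STAT3 response, a list that also holds parts of the pathway such as Il6ra, Lifr and Stat3, were split. Of 15 tested 4 were higher (Bcl3, Timp1, Il6ra and Irf1) and 3 lower (Stat3, Lifr and Fgl2). The call of Il6ra was lost without each of 7 libraries and that of Stat3 without each of 5, and Stat3 was at 0.07 on log2(TPM + 1). Timp1, an inhibitor of matrix proteases, had 10.9, 14.2, 12.3 and 15.9 CPM at Day 3 and 3.21, 4.68, 5.27 and 6.61 CPM at Day 1. Fgl2, a membrane prothrombinase, had 37.2, 37.0, 26.5 and 20.6 CPM at Day 3 and 75.6, 65.2, 55.7 and 67.6 CPM at Day 1, and neither gene's groups overlapped. Lifr, the receptor chain for leukemia inhibitory factor, was lower by 0.52 on the log2 scale with scaling factors but at 0.05 on log2(TPM + 1). Lrg1 (ENSMUSG00000037095, chromosome 17, 56119678 to 56122001, minus strand), a secreted glycoprotein induced by the same pathway, had 4.71, 6.19, 7.92 and 9.85 CPM at Day 3, against 24.1, 20.6, 35.4 and 23.8 CPM at Day 1. It was 3.63-fold lower (log2 fold change −1.86 ± 0.28, adjusted p = 7.7e-05 by edgeR), with no overlap.

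Genes of the stretched and fetal heart did not move as one group. Of 23 tested 4 were higher and 2 lower, or 4 lower with the replicate number as a block. Sprr1a (ENSMUSG00000050359, chromosome 3, 92483952 to 92485895, minus strand), a small proline-rich protein that stressed CM make, had 24, 37.5, 18.1 and 19.1 CPM at Day 3 and 1.95, 2.46, 3.12 and 3.16 CPM at Day 1. Its fold was 9.20 (log2 fold change 3.20 ± 0.54, adjusted p = 0.00039 by edgeR), and unoperated hearts averaged 0.012 CPM. Ankrd1, a sarcomeric ankyrin protein that responds to strain, was 1.63-fold lower, at 724, 682, 731 and 644 CPM at Day 3 and 1072, 1002, 1193 and 1261 CPM at Day 1. Fhl1, a LIM protein of the stretch sensor at titin, was 2.41-fold lower, with 46.2, 55.3, 41.8 and 39.6 CPM at Day 3 and 103, 108, 89.4 and 142 CPM at Day 1. The natriuretic peptides, the usual markers of wall stress, showed overlapping groups and no call. Nppa had 457, 443, 413 and 391 CPM at Day 3 and 266, 356, 425 and 579 CPM at Day 1 (log2 fold change 0.07), and Nppb differed by 0.17.

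Genes of the tubulin and cytoplasmic actin network rose. Of 24 tested 18 were higher and none lower, with a median of 0.91. Beta-actin (Actb), whose course in CM the study follows, had 111, 247, 135 and 253 CPM at Day 3 and 47.6, 82.5, 53.7 and 111 CPM at Day 1. The groups just touched, since replicate 1 of Day 3 was at the level of replicate 4 of Day 1, but each Day 3 library was above the Day 1 library of the same number (log2 fold change 1.34 ± 0.27, adjusted p = 0.0015 by edgeR). Vimentin (Vim), the intermediate filament of mesenchymal cells and leukocytes, had 87.3, 91.9, 82.4 and 88.5 CPM at Day 3 and 23.8, 20.0, 26.1 and 25.3 CPM at Day 1. The thymosin Tmsb10 rose 3.57-fold and the tubulin Tuba4a rose 2.41-fold. Cardiac alpha-actin (Actc1) was called at 1.42-fold, but its adjusted p went to between 0.052 and 0.074 without replicate 1 or 3 of either day. Of 21 sarcomere genes 3 were called lower (Myom1, Cmya5 and Ttn, or 5 genes with the replicate number as a block), and cardiac troponin T (Tnnt2) had a log2 fold change of 0.04 ± 0.21. Bcl2, the survival factor whose course the study also follows, had 3.37, 2.56, 2.20 and 1.47 CPM at Day 3 and 1.69, 2.03, 1.73 and 2.06 CPM at Day 1, with overlap and no call (adjusted p = 0.37 by edgeR).

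Fatty acid oxidation was the metabolic list with the largest number of lower members. Of 28 tested 13 were lower and none higher, with a median of −0.45 with scaling factors, −0.22 with library totals and −0.09 on log2(TPM + 1), where the median of all genes stood 0.23 and 0.10 above that with scaling factors. Pdk4 (ENSMUSG00000019577, chromosome 6, 5483351 to 5496309, minus strand) is the kinase that shuts off pyruvate oxidation when fat is burned. It had 104, 66.6, 64.5 and 103 CPM at Day 3, against 180, 136, 525 and 228 CPM at Day 1. Replicate 3 of Day 1 was far above the rest, and the groups did not overlap. The fold was 3.16 lower (log2 fold change −1.66 ± 0.41, adjusted p = 0.0083 by edgeR), and without that replicate the log2 fold change was −1.09 (adjusted p = 0.047). The mitochondrial thioesterase Acot2 was 2.27-fold lower. The fatty acid transporter Cd36 had 494, 400, 422 and 331 CPM at Day 3 and 814, 654, 833 and 656 CPM at Day 1. The triglyceride lipase Pnpla2, which frees fatty acids from droplets, had 23.2, 20.6, 30.8 and 24.5 CPM at Day 3 and 60.1, 48.9, 79.2 and 54.4 CPM at Day 1. The beta-oxidation enzymes Acadl (−0.50) and Hadhb (−0.55) and the carnitine transferase Cpt2 (−0.65) were also lower.

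The other mitochondrial lists held fewer calls. Of 22 genes of the tricarboxylic acid cycle and pyruvate 5 were lower, of 16 of branched-chain amino acid and ketone use 4, of 36 of oxidative phosphorylation 2 and of 13 protein-coding genes of the mitochondrial genome 3, with none higher in any of them. Over all genes tested 9.01% were higher and 5.89% lower, so 2 of 36 is near the common share. A fit of the 8 libraries alone gave 1, 2, 0 and 2 lower, in the same order. Leaving out 1 library moved these counts to as few as 2, 1, 1 and 1, the fewest for the cycle and for amino acids being without replicate 1 or 3 of Day 1 or replicate 2 or 4 of Day 3, for oxidative phosphorylation without replicate 1 of Day 1, and for the mitochondrial genome without replicate 2, 3 or 4 of Day 1 or replicate 2 or 4 of Day 3. The medians of these lists were −0.21, −0.33, −0.04 and −0.43 with scaling factors, −0.34, −0.28, −0.11 and −0.43 on TPM rescaled to nuclear protein-coding genes, 0.01, −0.10, 0.19 and −0.19 with library totals and 0.15, 0.18, 0.39 and 0.07 on log2(TPM + 1). Succinate dehydrogenase subunit A (Sdha), a member of both the cycle and the respiratory chain, had 191, 172, 187 and 184 CPM at Day 3 and 269, 259, 230 and 236 CPM at Day 1 (−0.44), and was at 0.17 on log2(TPM + 1). Mdh1 had the largest value in the cycle list (−4.91) but was not called. It had 0.097, 0.168, 0.0689 and 0.864 CPM at Day 3 and 0.0649, 21.3, 0.0844 and 12.5 CPM at Day 1, so that replicates 2 and 4 of Day 1 were far above all other libraries. Glycolysis had 1 higher and 1 lower member of 22, neither above the share over all genes. With the replicate number as a block 3 of its members were higher. No member was higher without replicate 2 or 3 of Day 1 or replicate 1, 2 or 3 of Day 3, and none lower without replicate 1, 2 or 4 of Day 1 or replicate 2, 3 or 4 of Day 3.

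Genes of calcium handling, cell contact and receptors of CM were lower or uncalled with scaling factors. Of 26 calcium and conduction genes 6 were lower (median −0.29), of 16 intercalated disc genes 6 (−0.37), of 17 cardiac transcription factors 6 (−0.31) and of 12 receptors for catecholamines, angiotensin, endothelin and related ligands 4 (−0.29), with none higher. These medians stayed below 0 with library totals (−0.06, −0.16, −0.07 and −0.06) and on TPM rescaled to nuclear protein-coding genes (−0.24, −0.27, −0.45 and −0.24), and were above 0 on log2(TPM + 1) without rescaling (0.10, 0.12, 0.01 and 0.02). Without replicate 4 of Day 3 only 2 calcium genes were lower, without replicate 4 of Day 1 only 3 disc genes, and without replicate 2 of Day 3 only 1 transcription factor. Ryr2 (ENSMUSG00000021313, chromosome 13, 11553102 to 12106945, minus strand) is the channel that releases calcium for each beat. It had 415, 490, 396 and 426 CPM at Day 3, against 831, 788, 596 and 625 CPM at Day 1. The groups did not overlap, at 1.64-fold lower (log2 fold change −0.72 ± 0.15, adjusted p = 0.0018 by edgeR), with −0.51 by library totals and −0.15 on log2(TPM + 1), where it was not called. The muscarinic receptor Chrm2 had 51.9, 43.1, 47.4 and 35.9 CPM at Day 3 and 96.4, 80.6, 69.7 and 73.9 CPM at Day 1. The desmosomal cadherin Dsg2 was lower by 0.68 and the desmosomal plaque protein Pkp2 by 0.48, the Pkp2 value standing at 0.075 on log2(TPM + 1). Titin (Ttn), the giant spring of the sarcomere, was lower by 0.68 (adjusted p = 0.052 without replicate 4 of Day 3) and the M-band protein Myom1 by 0.47, which was 0.28 on log2(TPM + 1).

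Most members of the stress program lists were not called. Over all genes tested 9.01% were called higher and 5.89% lower, so small counts here are not below the common share by themselves. None of 20 heat shock genes was called (1 was, lower, with the replicate number as a block), while 2 were lower of 24 AP-1 and early growth response genes (Myc and Btg2), 2 of 19 of the unfolded protein response (Atf6 and Dnajb9) and 2 of 16 hypoxia genes (Bnip3 and Pdk1), with none higher, or 1 higher in each of these last 3 lists with the replicate number as a block. Without replicate 4 of Day 1, 2 AP-1 and early growth response genes, 2 of the unfolded protein response and 1 hypoxia gene were higher. The calls of Myc and Btg2 were lost without each of 7 and of 4 libraries. Bnip3, a mitochondrial protein that marks mitochondria for removal, had 65.4, 60.6, 64.0 and 60.8 CPM at Day 3 and 176, 120, 181 and 126 CPM at Day 1, a 2.41-fold difference with no overlap. Of 21 antioxidant genes 3 were higher (Hmox1, Sod3 and Gpx1, or 5 genes with the replicate number as a block) and 3 lower (Cat, Gclm and Txnip, the call of Txnip being lost without replicate 3 of Day 1). Heme oxygenase (Hmox1), which breaks down heme from dead cells, had 5.53, 14.4, 6.57 and 8.21 CPM at Day 3 and 3.28, 2.52, 4.56 and 3.76 CPM at Day 1. Catalase (Cat) was 1.89-fold lower, with 32.4, 31.7, 28.9 and 30.7 CPM at Day 3 and 58.5, 51.5, 67.7 and 56.4 CPM at Day 1, and Gclm, a subunit of the enzyme for glutathione synthesis, was 1.63-fold lower. Mgst1, a glutathione transferase of membranes, was 2.61-fold lower with 19.8, 20.9, 21.9 and 20.5 CPM at Day 3 and 58.7, 42.0, 59.3 and 56.9 CPM at Day 1. The 37 ribosomal protein genes had no call, or 1 lower with the replicate number as a block, and a median of 0.34.

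Growth factors and markers of the heart's outer layer moved in both directions or upward. Follistatin-like 1 (Fstl1), a secreted glycoprotein, rose 5.25-fold and insulin-like growth factor 1 (Igf1) by 1.49 on the log2 scale. Angpt1, which keeps vessels quiet, had 19.5, 18.7, 22.5 and 12.6 CPM at Day 3 and 41.0, 44.8, 31.8 and 35.0 CPM at Day 1, and Fgf2, a mitogen of vessels and fibroblasts, had 4.03, 3.31, 3.40 and 3.05 CPM at Day 3 and 8.18, 4.55, 8.6 and 7.15 CPM at Day 1. Both were lower with no overlap, while Vegfa, the main vessel growth factor, was not called (−0.06). Of 10 mesothelial genes 5 were higher and none lower (median 1.03), or 3 higher without replicate 1 of Day 1. Dmkn, a secreted epithelial protein, had 4.80, 3.29, 6.18 and 5.33 CPM at Day 3 and 1.10, 1.45, 1.67 and 1.16 CPM at Day 1, and Wt1, the transcription factor of the epicardium, rose 2.04-fold. The list summed to 40.4 to 49.0 CPM at Day 3 and 19.5 to 28.4 CPM at Day 1. The part of epicardial cells in these values was not tested.

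**Figure D2:**
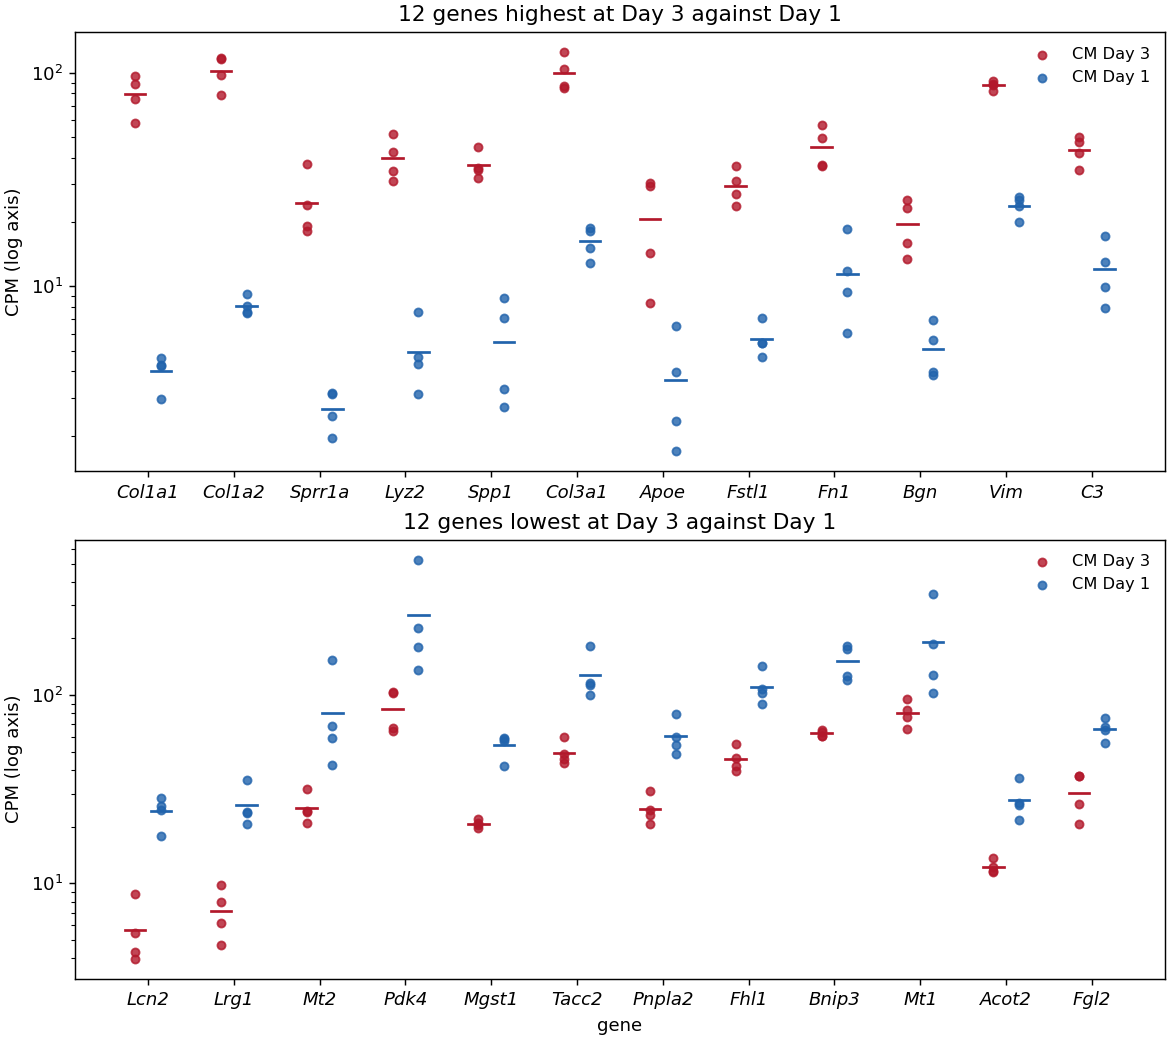
CPM on a log axis of the 12 genes with the highest (top) and the 12 with the lowest (bottom) log2 fold change, among called genes of at least 10 CPM whose groups do not overlap, in each CM library at Day 3 (red, left) and Day 1 (blue, right), with group means as bars. Within a gene the 4 points of a day lie close together next to the gap between days for Col1a1 or Mgst1, while Mt1, Mt2 and Pdk4 spread widely at Day 1, up to 525 CPM for Pdk4.

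The 12 highest and 12 lowest genes shown by library were chosen for the fold itself, for a mean of at least 10 CPM, for groups that do not overlap (10.4% of all genes tested had Day 3 above Day 1 in every library, and 7.94% below) and for a call kept without each library. Their order is therefore a description. The highest were Col1a1, Col1a2, Sprr1a, Lyz2, Spp1, Col3a1, Apoe, Fstl1, Fn1, Bgn, Vim and C3, and the lowest Lcn2, Lrg1, Mt2, Pdk4, Mgst1, Tacc2, Pnpla2, Fhl1, Bnip3, Mt1, Acot2 and Fgl2. On log2(TPM + 1), 12 of the 12 highest were also called, and 6 of the 12 lowest (Lcn2, Lrg1, Mgst1, Fhl1, Bnip3 and Acot2).

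**Figure D3:**
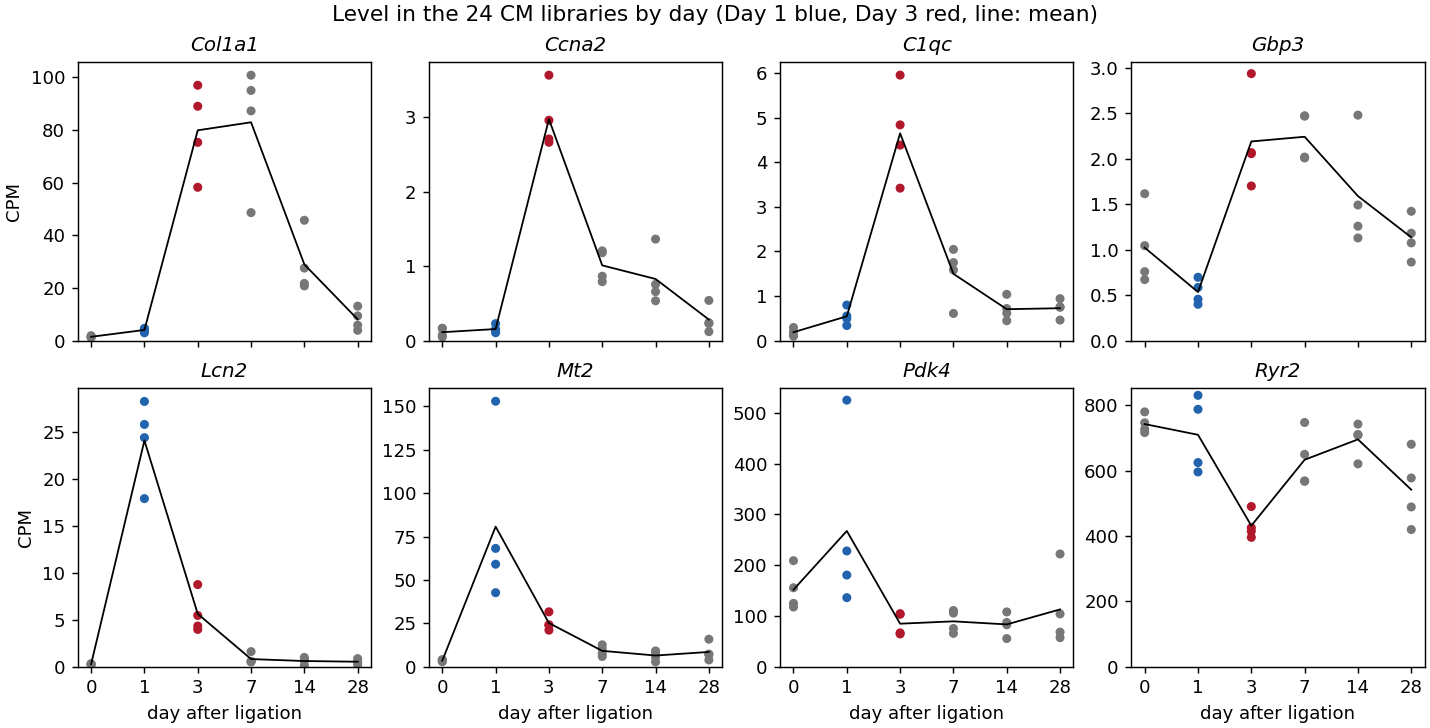
CPM of 8 genes in the 24 CM libraries by day after ligation (x axis, days not to scale, Day 0 unoperated), each point a library, Day 1 in blue, Day 3 in red, the line the mean. Lcn2, Mt2 and Pdk4 peak at Day 1, Ccna2 and C1qc at Day 3, and Gbp3 dips at Day 1.

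The same libraries of the other days place the step between Day 1 and Day 3 in a course, given as means with no test. The mean at Day 1 was at least 1.5 times that at Day 0 in 12 of the 12 lowest genes, which were chosen for a Day 1 level above that of Day 3, and in 9 of the 12 highest. The Day 3 mean was above the Day 0 mean in 7 of the 12 lowest and in 12 of the 12 highest. Mt2 averaged 3.53, 80.7, 25.2, 9.14, 6.45 and 8.51 CPM at Day 0, 1, 3, 7, 14 and 28. Pdk4 was below its Day 0 mean of 152 CPM at each time from Day 3 on, with 267 CPM at Day 1, 84.7 at Day 3, 89.3 at Day 7, 83.3 at Day 14 and 113 at Day 28. Of the 12 highest genes 11 had a lower mean at Day 28 than at Day 3. The cell cycle list summed to means of 34.5, 35.2, 96.0, 56.2, 55.9 and 36.7 CPM over the 6 times, with its top at Day 3. The collagen list summed to 64.9, 97.5, 431, 475, 263 and 128 CPM, with its top at Day 7, and the HC markers to 0.345, 2.06, 5.87, 2.71, 1.22 and 0.909 CPM.

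The CM change was then set against that of the EC isolates between the same days, in a fit of both cell types whose interaction term tests the difference between the 2 changes. Of 17470 genes 1034 (5.92%) were called, 662 (3.79%) with a higher and 372 (2.13%) with a lower change in CM. In EC itself 10.2% of genes were higher and 7.7% lower at Day 3. Of the genes described here the largest difference was that of Sprr1a. EC averaged 1.13 CPM at Day 3 and 7.02 CPM at Day 1, a change of −2.65, and the CM change was higher by 5.85 (adjusted p = 0.00015 by edgeR). Gpnmb followed with a difference of 4.92 and C1qc with 3.27, and neither was called in EC (−0.05 and −0.14). Cd68 differed by 3.25 and Dmkn by 3.22. By list, 12 of 18 complement genes, 7 of 13 resident macrophage genes, 10 of 26 interferon genes and 10 of 10 mesothelial genes had a higher change in CM, and the mesothelial genes had a median change of −1.37 in EC. Cell cycle genes went the other way, with 8 of 40 lower in CM than in EC and none higher, although all 40 were higher at Day 3 in EC. For 13 of 28 fatty acid oxidation genes lower in CM and 12 lower in EC, no difference of any member was called. Lrg1 was the lowest difference, at −1.86, with EC means of 11.6 CPM on both days. CM and EC libraries were prepared in different batches, and cell type and batch cannot be told apart. By the methods EC were isolated after CD45-positive cells had been taken out, and CM before that step. The 4 HC markers averaged 1.48 CPM in EC at Day 3 and 1.64 CPM at Day 1. The part of leukocytes and of other cells in these differences was not tested.

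**Figure D4:**
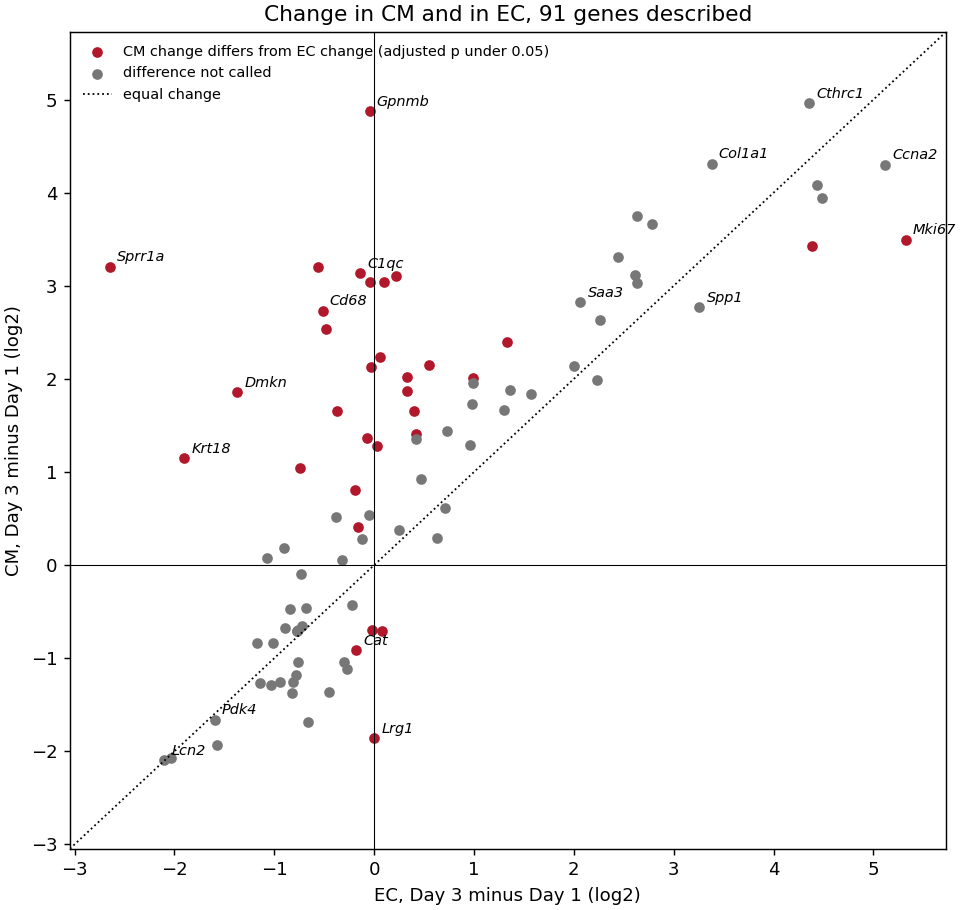
Log2 change between Day 1 and Day 3 (Day 3 minus Day 1) of 91 genes in CM (y axis) and EC (x axis), both from the fit of the 2 cell types, with genes whose changes differed by edgeR in red and equal change as a dotted line. Sprr1a, Gpnmb, C1qc, Cd68 and Dmkn lie far above the line, Lrg1 below it, and Col1a1, Spp1 and Lcn2 near it.

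The lists can be read against the scaling. In the Day 3 libraries nuclear protein-coding genes took 4.06% to 6.54% of all TPM and in the Day 1 libraries 2.79% to 4.34%, the rest being for the most part mitochondrial, so that a nuclear gene at a constant share of nuclear transcripts has a higher TPM at Day 3. With TPM rescaled to nuclear protein-coding genes 651 genes were higher and 104 lower. Among genes named by rule and called higher 61 of 70 were also called on log2(TPM + 1) and 52 of 70 on the rescaled values, and among those called lower 6 of 41 and 16 of 41. The median of the fatty acid list was −0.60 on the rescaled values, and those of the cell cycle, collagen, interferon and complement lists were above 0 under each of the 4 scalings plotted.

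**Figure D5:**
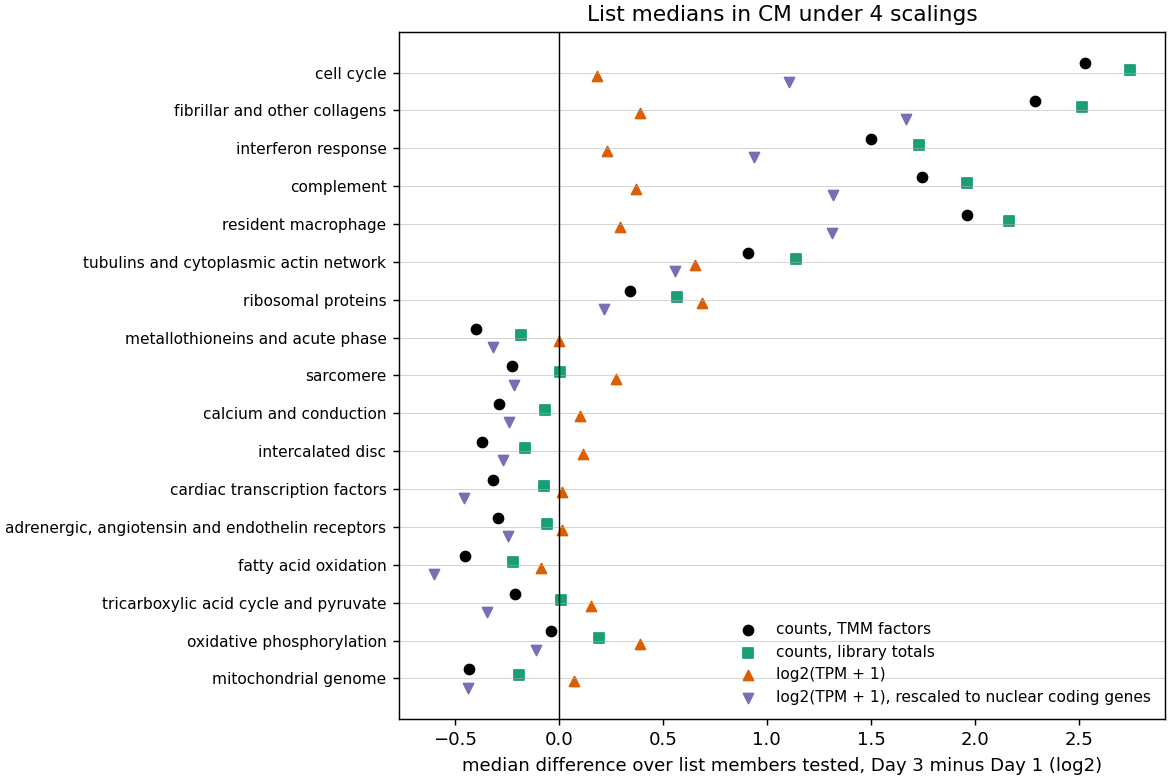
Median log2 difference (x axis, Day 3 minus Day 1) over the tested members of 17 lists in CM under 4 scalings: counts with TMM factors, counts with library totals, log2(TPM + 1), and the same rescaled to nuclear protein-coding genes. The higher lists stay right of 0 under each scaling, with small values on log2(TPM + 1) for genes of low level. The calcium, disc and mitochondrial genome lists stand right of 0 only on log2(TPM + 1). The sarcomere, tricarboxylic acid cycle and oxidative phosphorylation lists do so there and with library totals. Fatty acid oxidation stays left of 0 under each scaling.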

How the data were processed

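Total RNA of CM isolates was sequenced after removal of rRNA. As the authors describe, reads were trimmed with Trim Galore, aligned with STAR 2.28 to mm10 and quantified with Salmon. The deposited estimated counts and TPM, with a row per transcript (a row per gene for HC at Day 3), were made by the authors with Salmon. How the counting treated strand is not given in the sources used here, so overlapping genes are uncertain. Genes with near-identical copies (Actb, tubulins, histones, ribosomal proteins) are uncertain whatever the strand setting. The files of 40 of 96 libraries were used. Estimated counts were summed to 50973 genes with the GENCODE annotation of GRCm38 and rounded, and rows without a gene held at most 0.310% of reads. Genes were tested with edgeR 4.0.16 in R 4.3.3 (TMM factors, low-count filter, quasi-likelihood F test) in a fit of 24 CM libraries, and the difference from EC as an interaction in a fit of 16 CM and EC libraries. Adjusted p-values are Benjamini-Hochberg over all genes tested, and a call is an adjusted p under 0.05. CPM are scaled by TMM factors and include rRNA, and HC libraries were scaled separately. Alternatives used limma 3.58.1 on log2 TPM, DESeq2 1.42.0, other scalings and filters, left-out libraries and blocks.

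The test was tried on simulated data with known changes. Of 50 genes simulated with a log2 change of 1, 38 were called, and of 50 with a change of −1, 42. The labels give both days replicate numbers 1 to 4, although the mice differ. Same-numbered libraries deviated together (correlations of deviations 0.37, 0.34, 0.41 and 0.30), each Day 3 library most with its own number, so the numbers were treated as pairing the libraries in the blocked fit. No 2 libraries of a group agreed within sampling noise (chi-square per degree of freedom 15.6 to 346).

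Named genes were the 12 highest and 12 lowest called genes of at least 10 CPM with no overlap and a call kept in 8 leave-one-out fits, up to 3 per direction of each of 59 lists (at least 1 CPM, call kept), Actb, Bcl2 and the study's markers, and the 5 highest and 5 lowest differences from EC among these. Some genes that this rule names are not reported here. A gene of at most 3 reads in each library of a group is given by level. Other named genes, such as S100a8, Trem2, Top2a, Mki67, Pcna, Nppa, Tuba4a, Cd36 and Col4a1, were picked after their values were seen. The comparison and the lists were chosen with earlier results of these data known. Promoter windows came from RefSeq, and none was at hand for Ccna2, Rtp4 and Col1a1.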

Additional observations from a re-analysis of the deposited data

Results flagged for a closer look

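In 9 of 300 sets of 4 libraries examined, 1 library stood far from the other 3 (by Dixon's test of the gap over the range), and chance gives about 1 in 20. At Day 3, Cxcl16 had 3.17 CPM in replicate 4, against 2.53 to 2.60 CPM in the others. Replicate 2 of Day 3 stood apart for Saa3 (7.95 CPM, against 11.5 to 11.6), for Pkp2 (33.9, against 37.9 to 38.2), for the sum of interleukin-6 and STAT3 response genes (219, against 199 to 201) and for the sum of antioxidant genes (658, against 739 to 749). At Day 1, replicate 4 was low for Ccnd2 (29.9 CPM, against 33.9 to 34.6), replicate 2 was low for Mgst1 (42.0, against 56.9 to 59.3), and the high ones were replicate 1 for Myom1 (421, against 380 to 385) and replicate 3 for Flt1 (29.7, against 21.7 to 22.0).

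The change between the days differed between CM and EC, by the interaction test of edgeR, for 1034 genes. Among genes named by rule the CM change was higher for Sprr1a by 5.85 on the log2 scale, for Gpnmb by 4.92, for C1qc by 3.27, for Cd68 by 3.25 and for Dmkn by 3.22, and each of the 4 CM libraries at Day 3 was above all 4 at Day 1 for these genes. It was lower for Lrg1 (−1.86), Hist1h1c (−0.78), Cat (−0.73) and Gclm (−0.68), and higher for Ccnd2 by 0.56. The calls of Gclm, Ccnd2 and Hist1h1c, with adjusted p of 0.043, 0.045 and 0.044, were lost in some of the fits that left out a library. CM and EC also differ in preparation batch, which cannot be told apart from cell type. They differ in isolation too, since EC were taken after the removal of CD45-positive cells and CM before it.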

How the results depend on the processing

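The 1310 higher and 856 lower genes moved with the scaling. The median of all genes moved by 0.23 with library totals, 0.29 on log2(TPM + 0.1) and 0.10 on log2(TPM + 1). Lower genes numbered 68 with totals, 23 and 32 with these 2 pseudocounts, 450 with upper quartile factors, 493 from the 8 libraries alone and 545 with no filter. Higher genes numbered 2107 on log2(TPM + 1). At 10 CPM or more, with fewer genes tested, 412 were called, 217 higher and 195 lower. On TPM rescaled to nuclear protein-coding genes, chosen after seeing the data, 755 were called, 651 higher and 104 lower. Without 1 library, 1471 to 2191 were called, 457 (without replicate 4 of Day 3) to 964 (without replicate 1 of Day 3) of them lower.

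With the replicate number as a block, 2762 genes were called, 1545 higher and 1217 lower, and values with this pairing are given beside the lists whose counts it moved by over 1.5 times. Replicates 1 and 3 against 2 and 4 as a block, added after seeing the data, gave 2694. For the difference between CM and EC changes the block gave 925 genes, and the calls of Gclm and Ccnd2 were lost.

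The CM change against EC change was called different for 1656 genes by DESeq2 (1049 higher and 607 lower), and 242 were lower with no filter. Without 1 library it was called for 698 to 1153, with 209 (without replicate 2 of EC Day 1) to 482 (without replicate 1 of CM Day 3) lower, and with 220, 225 and 247 without replicate 3 of CM Day 3, replicate 1 of CM Day 1 and replicate 1 of EC Day 1.

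The 7 named genes called lower that turned sign did so on log2(TPM + 0.1) and log2(TPM + 1): Lifr (0.15 and 0.054), Myom1 (0.28 and 0.28), Dsc2 (0.14 and 0.058), Pkp2 (0.096 and 0.075), Sdha (0.18 and 0.17), Pcca (0.10 and 0.063) and Psmd11 (0.013 and 0.0093). Beside these 7, another 37 of the 119 named genes lost their call on each of these scales without turning sign. On log2(TPM + 1) 61 of 70 called higher and 6 of 41 called lower were still called. With totals 25 lost their call, on rescaled TPM 43, and at most 4 without any 1 library. The causes were not tested. Depth limits genes under about 1 CPM, where a library holds few reads.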
